A study of Rattus norvegicus with 6 samples.

Results

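T cells were taken from a single-cell survey of whole rat lung, and 1368 of 25547 deposited cells met the rule, 894 of 15009 from lungs given bleomycin (BLM) and 474 of 10538 from Control lungs. Members were chosen by measured transcripts: a cell was kept when it held a unique molecular identifier (UMI), the tag that marks 1 captured mRNA molecule, of at least 2 of the 5 genes Cd3e, Cd3g, Cd3d, Bcl11b and Skap1, at least 1 of them a Cd3 gene. Cells with a UMI of the B cell genes Cd79b or Ms4a1, the NK cell gene Ncr1, the macrophage gene Mrc1 or the endothelial gene Cdh5 were left out. BLM, a drug that injures the alveolar lining and is followed by scarring, was instilled once into the trachea at 5 mg/kg in 3 young adult Sprague Dawley rats, and 3 Control rats received saline by the same route. Lungs of both groups were taken on day 28 and dissociated to single cells, and mRNA was barcoded on BD Rhapsody beads. The model is a single injury seen at a single time, and the sex of the rats was not given in the sources used here. BLM rats 1 to 3 gave 244, 498 and 152 T cells, and Control rats 1 to 3 gave 199, 115 and 160. The cell names mark the libraries with an F or an N and a number, and F was read as BLM and N as Control because the cell totals of both letters equal those the study gives for the groups.

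T cells recognise peptides held on MHC molecules through a receptor that signals by the CD3 chains, and they leave the blood for tissues such as the lung once activated. CD8 cells kill infected or altered cells with granule proteins such as perforin and the granzymes, CD4 cells help other leukocytes through cytokines and surface ligands, and regulatory T cells marked by Foxp3 restrain both. Cells that make interleukin 17A, found among CD4 and gamma delta T cells, draw neutrophils into mucosal tissue, and T cells of several kinds gather in the bleomycin-injured lung of rodents.

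The genes of the rule stood high by construction and are described without a test. Cd3e, a signalling chain of the receptor complex, was at 1492, 1518 and 1539 CPM in T cells of BLM rats and 1495, 1505 and 1724 CPM in those of Control rats, where CPM is UMIs per 1000000 UMIs of a rat's summed T cells. Bcl11b, the transcription factor that holds T cell identity, was at 632, 524 and 540 CPM in BLM rats and 542, 706 and 623 CPM in Control rats. Of 17 T cell genes listed as markers, 12 were measured, and none of the 10 of them that were tested passed the test between groups. Over the 6 rats Lat, an adaptor of receptor signalling, averaged 649.1 CPM in T cells, against 2.65 in B cells, 234 in NK cells and 16.9 CPM in all other cells, and Trat1, a receptor-associated adaptor, averaged 148 CPM in T cells, against 1.33 in B cells, 1.53 in NK cells and 1.89 CPM in all other cells. Zap70 went the other way, at 178 CPM in T cells and 261 CPM in NK cells. Cd2, Lck and Cd247 were closer between T and NK cells than Lat, such as Lck at 625 CPM and 515 CPM. Against B cells and all other cells pooled the label T cell thus stood on genes the rule did not use. Against NK cells only some of these genes set it apart. At the edge of the rule, Lef1, a transcription factor of naive T cells, had a UMI in 37.2% of the 576 cells with exactly 2 rule genes, and in 24.7% of the 384 cells left outside with 1 Cd3 gene alone, at median depths of 862 and 817.5 UMIs.

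T cells were shallow, and some carried RNA of other cells. The median T cell held 995, 879.5 and 1029.5 UMIs in BLM rats and 1211, 1003 and 963 UMIs in Control rats, and the sums per rat ran from 174092 to 496586 UMIs in BLM rats and from 118900 to 248872 UMIs in Control rats. The summed level of 10 stromal markers in T cells ran from 151 to 4837 CPM in BLM rats and from 36.2 to 42.3 CPM in Control rats, with none of the 10 at 0 in the T cells, and of 8 alveolar type 2 markers from 34.1 to 3952 CPM in BLM rats and from 194 to 522 CPM in Control rats. In BLM 2, 3 erythroid genes summed to 6504 CPM, against 11.5 to 60.6 CPM in the other BLM rats and at most 16.8 CPM in Control rats. The 12 T cell markers outside the rule summed to between 3395 and 3733 CPM in BLM rats and between 4046 and 4331 CPM in Control rats, without overlap, and their part in the results below was not tested. In 75 T cells, 54 from BLM and 21 from Control lungs, 3 or more UMIs of macrophage, alveolar type 2, endothelial or stromal markers were found. Results without these cells are given below where a called gene or a count changed, and genes called only without them are not named. Cell labels were shared between libraries by 629 cells, 37 of them T cells.

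Whether BLM changed how many T cells the lung held was asked first. T cells made up 6.67%, 6.66% and 3.93% of the cells of BLM rats and 5.90%, 4.48% and 3.48% of those of Control rats, with 95% Wilson intervals that reached down to 3.36% and up to 7.53% among BLM rats, down to 2.99% and up to 6.75% among Control rats, and cover counting error only. The groups overlapped, at 5.75% ± 1.58 in BLM rats and 4.62% ± 1.22 in Control rats (SD, n = 3 each, two-sided exact permutation p = 0.3, where 0.1 is the smallest this design allows). Among T, B and NK cells together, T cells took 49.7% ± 7.76 in BLM rats and 43.4% ± 4.30 in Control rats (SD, n = 3 each, exact permutation p = 0.3). A share after dissociation depends on every other cell type recovered.

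CD8, Foxp3 and CD4 cells were counted after 1 random thinning of each T cell to 500 UMIs, which left out 45 BLM and 20 Control T cells. Cells with a Cd8a or Cd8b UMI, the chains of the CD8 coreceptor, made up 21.8%, 16.9% and 23.9% of T cells in BLM rats and 25.3%, 20.7% and 36.9% in Control rats, overlapping between groups (exact permutation p = 0.3). In B cells thinned alike the share lay between 0% and 1.64%. Without thinning the share was 27.5%, 22.5% and 35.5% in BLM rats and 38.7%, 27.8% and 46.3% in Control rats. Cd8b cells without a Cd4 UMI took 7.90% ± 1.85 in BLM rats and 9.87% ± 2.51 in Control rats (SD, n = 3 each, exact permutation p = 0.4), and after thinning to 300 UMIs all BLM rats lay below all Control rats (exact permutation p = 0.1). Foxp3, the transcription factor of regulatory T cells, had a UMI in 1.71%, 3.17% and 3.52% of T cells in BLM rats and 1.03%, 4.50% and 1.34% in Control rats (exact permutation p = 0.8), and in 0 of the thinned B cells. The share expected over all draws was 2.78%, 3.40% and 2.36% in BLM rats and 1.01%, 4.08% and 1.45% in Control rats, so the order of rats in the 1 draw is not firm. A difference in any of these shares was not detectable with 3 rats a group. Cd4, the coreceptor of helper cells, had UMIs without Cd8 in 19 T cells, 7 of BLM and 12 of Control rats and 0 in Control 3, so CD4 cells could not be compared here.

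**Figure D1:**
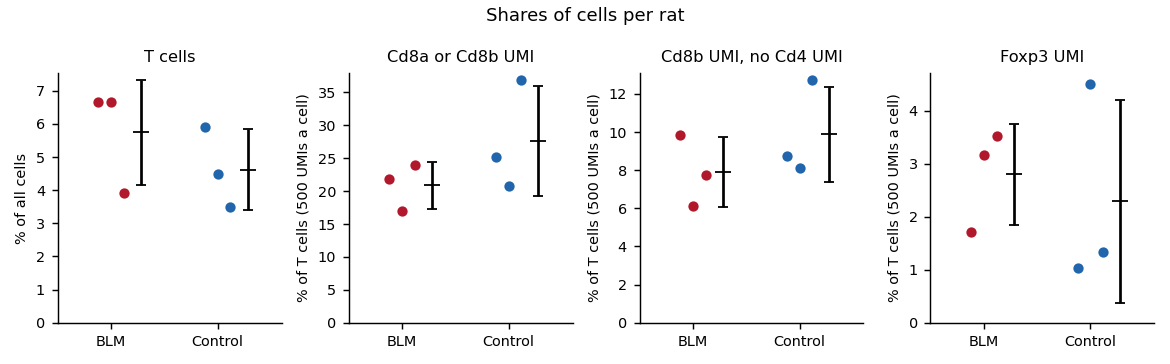
Each point is 1 rat, BLM in red and Control in blue, and bars give mean and SD (n = 3 each). The left panel shows T cells as a percent of all cells, and the other panels the percent of T cells, thinned to 500 UMIs, with a Cd8a or Cd8b UMI, with a Cd8b UMI and no Cd4 UMI, and with a Foxp3 UMI, and the groups overlap in every panel, with T cells at 3.93% to 6.67% in BLM rats and 3.48% to 5.90% in Control rats.

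The main comparison asked which genes differed in T cells between BLM and Control lungs. Genes higher in BLM rats included the interleukin 2 receptor chain Il2ra, the costimulator Icos, the immediate early nuclear receptor Nr4a3 and the phosphatase Dusp2, together with the nuclear receptor Rora and the secreted protein Olfm1. Of 4036 genes tested on summed UMIs by edgeR's quasi-likelihood test, 23 were higher in BLM rats (0.570%) and 12 were lower (0.297%) at an adjusted p under 0.05, and 427 had an unadjusted p under 0.05. The median log2 fold change of all genes tested was -0.01. In all 35 genes the rats of the groups did not overlap, as was also so for 6.71% of all tested genes with BLM above and 9.12% with Control above. Calls moved with single rats: 59 were higher without BLM 1, 36 without BLM 2, 13 without Control 1, 5 without Control 2 and 15 without Control 3, and 2 were lower without Control 1 and 1 without Control 2. Olfm1, Ell2, Il2ra and Rora passed in all 6 fits that left out 1 rat.

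Receptors and costimulators came first among the genes that rose. Il2ra, the chain that makes the interleukin 2 receptor high in affinity on activated and regulatory T cells, was at 288, 352 and 327 CPM in BLM rats and 145, 58.9 and 109 CPM in Control rats (log2 fold change 1.59, SE 0.25, edgeR adjusted p = 8.3e-04). Every BLM rat lay above every Control rat. At 500 UMIs a cell, the share of T cells expected over all draws to have an Il2ra UMI was 10.2%, 12.7% and 14.1% in BLM rats. It was 5.74%, 3.13% and 4.28% in Control rats, against 0.204% of B cells. At this depth the share rises with the level itself, so it does not tell more cells from more transcript in each cell. Icos, an inducible member of the CD28 family that binds its ligand on antigen presenting cells, was at 360, 451 and 494 CPM in BLM rats and 297, 269 and 175 CPM in Control rats (0.85, SE 0.21, adjusted p = 0.0472). Control 1 came closest to the BLM rats, and Icos passed in 1 of the 6 fits that left out a rat.

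Transcription and elongation factors made up a second group. Rora, an orphan nuclear receptor that in mice acts in type 17 T cells and group 2 innate lymphoid cells, was at 114, 80.5 and 126 CPM in BLM rats and 28.1, 33.6 and 12.1 CPM in Control rats (2.09, SE 0.40, adjusted p = 0.0094). These levels rest on 92 UMIs in BLM and 13 in Control T cells. Nr4a3, an orphan nuclear receptor switched on within hours of receptor signalling, was at 1060, 1204 and 1166 CPM in BLM rats and 840, 547 and 381 CPM in Control rats (0.99, SE 0.21, adjusted p = 0.0192). Ell2, an elongation factor of RNA polymerase II best known from antibody secreting cells, was at 356, 409 and 276 CPM in BLM rats and 161, 101 and 109 CPM in Control rats (1.51, SE 0.23, adjusted p = 8.3e-04). The BLM rats were close to each other in Nr4a3 and spread further in Ell2, without overlap with Control in either.

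Signalling, secreted and housekeeping proteins followed. Olfm1, olfactomedin 1, a secreted glycoprotein studied mostly in the nervous system, had the largest rise among the genes at least as high in T cells as in all other cells pooled, at 102, 149 and 167 CPM in BLM rats and 16.1, 25.2 and 18.1 CPM in Control rats (2.89, SE 0.40, adjusted p = 2.9e-04). Its 130 UMIs in BLM T cells lay in 97 cells and its 10 UMIs in Control T cells in 8, so no single cell carried the difference. Prnp, the prion protein held on the membrane by a lipid anchor, was at 117, 137 and 230 CPM in BLM rats and 52.2, 50.5 and 48.4 CPM in Control rats (1.65, SE 0.33, adjusted p = 0.0126). Dusp2, a nuclear phosphatase of MAP kinases induced in activated lymphocytes, was at 651, 528 and 540 CPM in BLM rats and 265, 151 and 363 CPM in Control rats (1.15, SE 0.22, adjusted p = 0.0102). BLM 1 was the highest in Dusp2 and the lowest of its group in Prnp. Hspd1, the mitochondrial chaperonin HSP60, was at 1121, 1251 and 994 CPM in BLM rats and 792, 639 and 629 CPM in Control rats (0.75, SE 0.16, adjusted p = 0.0172). Cwc25, a splicing factor, was at 538, 360 and 448 CPM in BLM rats and 305, 252 and 212 CPM in Control rats (0.82, SE 0.20, adjusted p = 0.0472). Srgn, the granule proteoglycan serglycin, was the 11th of this kind, at a log2 fold change of 0.66 (adjusted p = 0.0381). Some of these genes stood higher in NK cells than in T cells, such as Dusp2 at 416 CPM in T cells and 808 CPM in NK cells and Rora at 65.7 CPM in T cells and 132 CPM in NK cells.

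**Figure D2:**
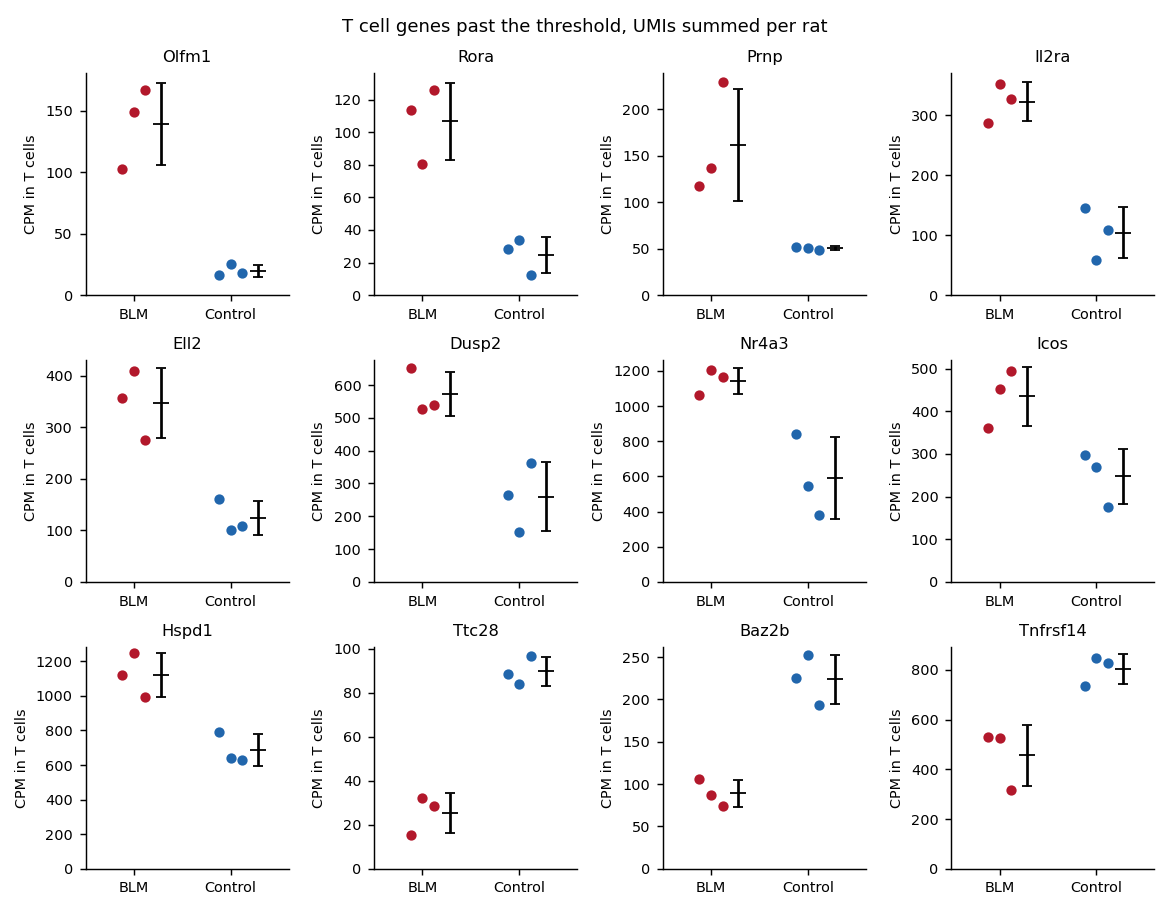
Each panel shows 1 gene as CPM in T cells on an axis that starts at 0, with 1 point for each BLM rat (red, left) and each Control rat (blue, right) and bars for mean and SD (n = 3 each). The first 9 genes stand higher in all BLM rats, such as Olfm1 at 102 to 167 CPM against 16.1 to 25.2 CPM, and Ttc28, Baz2b and Tnfrsf14 stand lower in all BLM rats.

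The promoters of the genes that rose were read for the motifs of factors that act after receptor signalling, in the 250 bases before the RefSeq start of GRCr8. A window was found for 21 of the 23 genes, and none for Nr4a3 and Cd93, so the immediate early gene among the risers was not read. On either strand, the cyclic AMP element TGACGTCA stood in 1 of the 21, against 1.59% of 33469 promoters, the AP-1 element TGANTCA in 2, against 6.34%, an NF-kB element in 1, against 1.30%, and the NFAT core GGAAAA in 4, against 21.6%. The windows of Ell2, which held the cyclic AMP match, and of Cxcl2, which held the NF-kB match, are shown, with the matches in capitals. The Ell2 window is chr2:6921602-6921851 on the plus strand, with the cyclic AMP element at -233 from the start. The Cxcl2 window is chr14:17467256-17467505 on the minus strand, with NF-kB elements at -74 and -54.
Ell2: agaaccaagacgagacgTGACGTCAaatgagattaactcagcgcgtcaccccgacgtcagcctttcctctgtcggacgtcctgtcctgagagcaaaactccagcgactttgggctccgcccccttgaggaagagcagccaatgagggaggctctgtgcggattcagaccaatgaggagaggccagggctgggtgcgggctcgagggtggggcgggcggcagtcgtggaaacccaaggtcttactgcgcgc
Cxcl2: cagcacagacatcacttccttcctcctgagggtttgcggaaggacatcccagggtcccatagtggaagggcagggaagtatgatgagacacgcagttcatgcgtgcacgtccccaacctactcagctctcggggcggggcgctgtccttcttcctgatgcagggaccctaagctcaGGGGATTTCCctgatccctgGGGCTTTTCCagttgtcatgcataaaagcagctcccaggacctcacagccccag
A match is a run of letters and says nothing of binding in these cells.

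Genes that rose but were higher in the other lung cells pooled than in T cells numbered 12 of the 23. Cxcl2, a chemokine that attracts neutrophils and whose promoter is printed above, was at 56.8, 131 and 63.2 CPM in T cells of BLM rats and 4.02, 16.8 and 12.1 CPM in those of Control rats (3.25, SE 0.56, adjusted p = 0.0035), against 1373 CPM in all other cells. Of its 91 UMIs in BLM T cells, 27 lay in 1 cell. After thinning, 2.15%, 4.48% and 1.07% of T cells in BLM rats and 0.160%, 0.853% and 0.610% in Control rats had a Cxcl2 UMI. B cells of both groups together stood at 3.96%, above BLM 1 and BLM 3 and below BLM 2, and the source of these UMIs was not tested. Cd93, a receptor-like glycoprotein of endothelial and myeloid cells, was at 90.9, 64.4 and 91.9 CPM in BLM rats and 20.1, 8.41 and 6.05 CPM in Control rats (2.61, SE 0.49, adjusted p = 0.0094). Cd93 also rose in the sum of all other cells (1.73, SE 0.33, adjusted p = 0.0124). Ramp3, a partner of the calcitonin receptor-like receptor, was at 87.1, 50.3 and 144 CPM in BLM rats and 16.1, 16.8 and 12.1 CPM in Control rats (2.50, SE 0.52, adjusted p = 0.0144). The others were Cpm, a membrane carboxypeptidase, Hes1, a target of Notch, Cdc42ep3, Tmem33, Lgals3bp, Gda, Cd99, Slc12a2 and S100a6, with log2 fold changes between 1.19 and 2.39. In all other cells together Cpm and S100a6 went the other way (-2.70, adjusted p = 0.0013, and -0.82, adjusted p = 0.0425). Without the 75 T cells with RNA of other types, Cd99, Gda, Hes1, Lgals3bp, S100a6 and Slc12a2 among the genes that rose no longer passed, at log2 fold changes of 1.14 to 1.28 against 1.19 to 1.58 with all T cells, and Cxcl2 and Cpm were too low to be fitted.

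Of the 12 genes that fell, 6 carried a RefSeq symbol or synonym and 6 did not, and all 12 were at least as high in T cells as in all other cells pooled, though Baz2b averaged 156 CPM in T cells and 173 CPM in B cells. Ttc28, a tetratricopeptide repeat protein, was at 15.1, 32.2 and 28.7 CPM in BLM rats and 88.4, 84.1 and 96.8 CPM in Control rats (-1.70, SE 0.39, adjusted p = 0.0259), from 25 UMIs in BLM and 48 in Control T cells. In all other cells pooled Ttc28 went the other way (1.23, adjusted p = 0.0063), while the other 11 of the 12 had negative fold changes there, with a median of -0.54 over all 12. None of the 7 tested in B cells or of the 6 tested in NK cells was positive. The share of all tested genes that were negative in those cells is not given here. Baz2b, a bromodomain protein of chromatin remodellers, was at 106, 86.6 and 74.7 CPM in BLM rats and 225, 252 and 194 CPM in Control rats (-1.25, SE 0.25, adjusted p = 0.0119). Usp40, a ubiquitin protease, was at 41.6, 98.7 and 68.9 CPM in BLM rats and 177, 193 and 169 CPM in Control rats (-1.22, SE 0.29, adjusted p = 0.0394). The lowest Control rat stood above the highest BLM rat in each. Ftsj1, a methyltransferase of transfer RNA, was at 125, 169 and 241 CPM in BLM rats and 410, 261 and 339 CPM in Control rats (-0.93, SE 0.23, adjusted p = 0.0486). Among the loci without a symbol the largest falls were of AC128207.2 (-1.67) and AABR07014313.1 (-1.57). Tnfrsf14, the herpesvirus entry mediator that regulates lymphocytes through Btla and was chosen here after its values were seen, was at 530, 526 and 316 CPM in BLM rats and 735, 849 and 829 CPM in Control rats (-0.74, SE 0.19, adjusted p = 0.0486). Without the 75 cells named above its log2 fold change was -0.67 (adjusted p = 0.0653).

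Of 25 lists of T cell roles with 431 members, 353 members were measured and 206 were tested, and each list is given by its counts and median beside the -0.01 of all genes. The lists bear on the same comparison as the calls above and add no independent support. Tissue residency, the programme of T cells that stay in mucosa, had 9 tested members, of which Nr4a3 rose and 8 had positive fold changes, with a median of 0.77. Rgs1, a regulator of G protein signalling and of T cell exit, was at 1669, 1194 and 1631 CPM in BLM rats and 904, 572 and 1222 CPM in Control rats (0.76, adjusted p = 0.124), with BLM 2 under Control 3. Cd69, which keeps T cells in tissue by opposing S1pr1, was at 1420, 1651 and 1488 CPM in BLM rats and 1507, 1489 and 1034 CPM in Control rats (0.23, adjusted p = 0.674).

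Regulatory T cell genes had 6 tested members with a median of 0.71, and Il2ra and Icos rose. Foxp3 was at 53.0, 74.5 and 40.2 CPM in BLM rats and 24.1, 58.9 and 42.3 CPM in Control rats (0.69, adjusted p = 0.613), and Ctla4, an inhibitory receptor, at 117, 159 and 68.9 CPM in BLM rats and 92.4, 227 and 115 CPM in Control rats (-0.08, adjusted p = 0.975). The defining members thus overlapped between groups. Of the 56 T cells with a Foxp3 UMI, 51.8% also had Il2ra and 35.7% Ctla4, against 13.6% and 7.09% of the other 1312 T cells, at median depths of 798.5 and 983 UMIs. Of the 208 T cells with an Il2ra UMI, 29 also had a Foxp3 UMI. At this depth a cell without a Foxp3 UMI can still express Foxp3, so how many of the Il2ra cells were regulatory was not measured.

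Naive and recirculating T cell genes had 13 tested members, none past the test, with a median of -0.19. Lef1 was at 598, 719 and 431 CPM in BLM rats and 1005, 967 and 913 CPM in Control rats (-0.66, SE 0.18, adjusted p = 0.0649), without overlap. Klf3, a zinc finger factor of lymphocyte homing, was at 594, 729 and 471 CPM in BLM rats and 948, 1001 and 937 CPM in Control rats (-0.62, adjusted p = 0.0746). Ccr7, the receptor for entry into lymph nodes, was at 144, 201 and 184 CPM in BLM rats and 354, 202 and 151 CPM in Control rats (-0.41, adjusted p = 0.635). Lef1 and Klf3 lay lower in every BLM rat, short of the threshold, and Ccr7 overlapped.

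Costimulation and TNF receptor genes had 10 tested members with 1 past the test, Icos, and a median of -0.01. Cd27, a costimulatory receptor that naive cells carry, was at 390, 507 and 293 CPM in BLM rats and 663, 706 and 689 CPM in Control rats (-0.71, adjusted p = 0.0580). Cd40lg, the ligand by which helper T cells license B cells and dendritic cells, was at 155, 117 and 109 CPM in BLM rats and 217, 278 and 218 CPM in Control rats (-0.83, adjusted p = 0.0801). Neither overlapped between groups or passed. Of the 10 members, 5 were positive and 5 negative, with BLM rats above in 2 and Control rats above in 2.

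Survival and apoptosis genes had 11 tested members, none past the test, with a median of 0.43. Birc3, an inhibitor of apoptosis induced by NF-kB, was at 242, 211 and 270.0 CPM in BLM rats and 137, 118 and 145 CPM in Control rats (0.87, adjusted p = 0.0626), and Bcl2l11, the death factor BIM, at 193, 145 and 190 CPM in BLM rats and 129, 67.3 and 36.3 CPM in Control rats (1.09, adjusted p = 0.0867). Among 22 lymphocyte transcription factors, none past the test and with a median of 0.07, Nfkb1 was at 394, 518 and 356 CPM in BLM rats and 305, 286 and 218 CPM in Control rats (0.71, adjusted p = 0.0819). BLM rats lay above Control rats in these 3 genes, which missed the threshold. Other members went the other way. In the survival list 7 members were positive and 4 negative, with BLM rats above in 4 and Control rats above in 2. Among the transcription factors 13 were positive and 9 negative, with BLM rats above in 4 and Control rats above in 3.

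Further lists had 0 members past the test. T cell receptor signalling had 15 tested members with 0 past the test and a median of -0.06, MHC class I 15 with 0 and a median of 0.00, interferon-induced genes 11 with 0 and 0.15, and proliferation 11 with 0 and -0.05. The 6 GIMAP GTPases, small proteins that keep T cells alive, had a median of -0.36 with 0 past the test. In 4 of them Control rats lay above BLM rats, as in 9.12% of all tested genes. All 11 tested glycolysis genes had positive fold changes with a median of 0.27, and 0 passed. In the TGF-beta response, 5 were tested with a median of 0.80 and 0 past the test, and Smad7, its feedback inhibitor, was at 522, 453 and 281 CPM in BLM rats and 257, 311 and 121 CPM in Control rats (0.95, adjusted p = 0.133).

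Ccl5 and Gzmk differed widely between rats of 1 group. Ccl5, a chemokine of memory and CD8 cells, was at 4051, 415 and 4170 CPM in BLM rats and 362, 1354 and 5582 CPM in Control rats (0.26, adjusted p = 0.979). Gzmk, a granzyme, was at 303, 50.3 and 322 CPM in BLM rats and 32.1, 219 and 272 CPM in Control rats (0.39, adjusted p = 0.966). In both genes BLM 2 and Control 1 were the low rats of their groups. Cytotoxic genes had 13 tested members with a median of -0.36, of which Srgn rose. Control rats lay above BLM rats in 3, as in 9.12% of all tested genes. Of the remaining lists, cytokine receptors had 1 of 15 tested past the test (Il2ra, median 0.22) and adhesion genes 1 of 28 (S100a6, median 0.08). Chemokine receptors had 0 of 6, cytokines 0 of 7, inhibitory receptors 0 of 4, type 1 genes 0 of 6, type 2 genes 0 of 2 and follicular helper genes 0 of 3. The list of AP-1 and immediate early genes and that of heat shock genes were mostly not analysed here. Each had 1 tested member, Dusp2, a phosphatase and no AP-1 subunit, and Hspd1, and both rose.

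The type 17 list had 22 members, of which 17 were measured and 3 tested. In all 3 BLM rats lay above Control rats, as in 6.71% of all tested genes, and Rora passed. Il17a, the cytokine that calls in neutrophils, was at 379, 143 and 213 CPM in BLM rats and 72.3, 0 and 0 CPM in Control rats (2.90, SE 0.996, adjusted p = 0.420). Ccr6, its cells' receptor for Ccl20, was at 148, 74.5 and 276 CPM in BLM rats and 56.3, 50.5 and 30.2 CPM in Control rats (1.73, SE 0.49, adjusted p = 0.132). Neither passed, although both were separate between the groups. Il17a UMIs came from few cells: 8 of 244, 13 of 498 and 12 of 152 T cells in BLM rats and 3 of 199, 0 of 115 and 0 of 160 in Control rats, with 72 of the 208 BLM UMIs in 1 cell.

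The 36 T cells with an Il17a UMI, 33 of BLM and 3 of Control rats, are described here by the other transcripts they held, without a test. An Il2ra UMI was found in 24 of them (66.7%), against 13.8% of the other 1332 T cells, at median depths of 1059.5 and 976 UMIs. Icos stood in 52.8% against 18.5%, Ccr6 in 38.9% against 5.78%, and Il23r, the receptor that sustains type 17 cells, in 22.2% against 1.13%. Blk, a kinase of B cells and of interleukin 17 making gamma delta T cells in mice, stood in 38.9% against 1.88%. Cd93 stood in 36.1% against 2.03% and Ramp3 in 30.6% against 3.68%. Lef1 stood in 0 of 36, which allows up to 8.33% of cells with a UMI by counting error alone and does not limit the cells that express it, against 44.9% of the others, and Olfm1 in 16.7% against 7.43%.

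Some transcripts of the genes that rose lay in these cells. They held 25 of the 72 Cd93 UMIs of BLM T cells and 5 of the 7 of Control T cells, and without them Cd93 was at 82.4, 33.2 and 61.6 CPM in BLM rats and 0, 8.41 and 6.05 CPM in Control rats. Without them, in a fit added after the data were seen, 15 genes were higher and 8 lower, and 22 of these 23 were among the 35. Cd93 and Ramp3 were then too low to be fitted. Icos missed the threshold at a log2 fold change of 0.78 (adjusted p = 0.0787), close to its 0.85 in all T cells, and Tnfrsf14, with 0 UMIs in the cells left out, at -0.70 (adjusted p = 0.0628). Il2ra was then at 247, 325 and 283 CPM in BLM rats and 98.0, 58.9 and 109 CPM in Control rats, and Olfm1 at 94.2, 143 and 172 CPM in BLM rats and 16.3, 25.2 and 18.1 CPM in Control rats. Both stayed separate between the groups, with log2 fold changes of 1.69 for Il2ra and 2.83 for Olfm1.

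**Figure D3:**
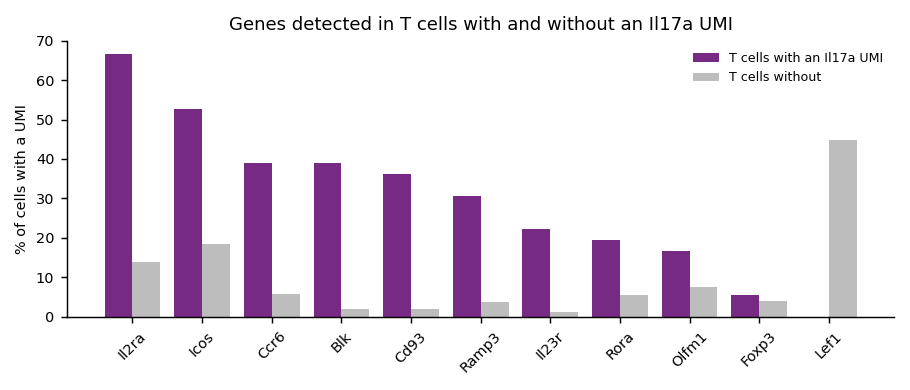
Bars give the percent of T cells with at least 1 UMI of each gene, for the 36 T cells with an Il17a UMI (purple) and the 1332 without (grey), all rats together. Il2ra stands in 66.7% of cells with Il17a and 13.8% of those without, and Lef1 in 0% and 44.9%.

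T cells with and without a Cd8 UMI were compared within each rat, to see how the T cells differed among themselves. The 416 cells with a Cd8a or Cd8b UMI had a median of 1080 UMIs and the 952 without had 929, and at this depth the cells without one still include CD8 cells in which no Cd8 UMI was caught. With Cd4, Cd8a and Cd8b set aside and the rat as a block, edgeR's quasi-likelihood test found 51 of 1992 genes higher in Cd8 cells (2.56%) and 50 lower (2.51%), 5.07% in either direction. Genes of killer cells were among the higher ones. Ctsw, a protease of killer cells, averaged 555 ± 137 CPM in Cd8 cells and 113 ± 69.7 CPM in the others (SD, n = 6 rats, log2 fold change 2.38, SE 0.26, edgeR adjusted p = 1.2e-05). Il2rb, the chain by which memory CD8 cells sense interleukin 2 and 15, averaged 687 ± 227 CPM in Cd8 cells and 254 ± 108 CPM in the others (1.51, SE 0.17). Cd7 (2.82), Gzmm (2.69), Nkg7, a granule membrane protein (2.62), and the cycle marker Mki67 (2.09) were higher in Cd8 cells of all 6 rats. Of 9 tested cytotoxic genes, 6 were higher in Cd8 cells, Prf1 among them (0.77), and Srgn was lower. Without BLM 2, 23 genes were higher in Cd8 cells and 24 lower, and without Control 3 the lower ones numbered 30.

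The largest difference among genes lower in Cd8 cells was that of Cd40lg. It was at 0, 16.1 and 15.5 CPM in Cd8 cells of BLM rats and 50.7, 27.1 and 12.2 CPM in those of Control rats, against 231, 151 and 164 CPM in the other T cells of BLM rats and 326, 391 and 421 CPM in those of Control rats (-3.62, SE 0.35). Cd40lg was lower in Cd8 cells of all 6 rats. Il6r, an interleukin 6 receptor chain (-2.17), Il17a (-2.03), Trib2 (-1.93), Pja1 (-1.58), Ppfibp1 (-1.47), Gata3, the factor of type 2 helper cells (-1.40), and Itga6, an integrin (-1.39), were lower too. Il17a had 0 UMIs in T cells of Control 2 and Control 3, and 72 of its 208 BLM UMIs lay in 1 cell. Of the 36 T cells with an Il17a UMI, 19.4% had a Cd8a or Cd8b UMI, against 30.7% of the others. Il2ra (-0.78), Icos (-1.13) and Lef1 (-0.54) were lower in Cd8 cells, and Dusp2 was higher (0.61). Genes that passed between BLM and Control rats thus lay on both sides.

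**Figure D4:**
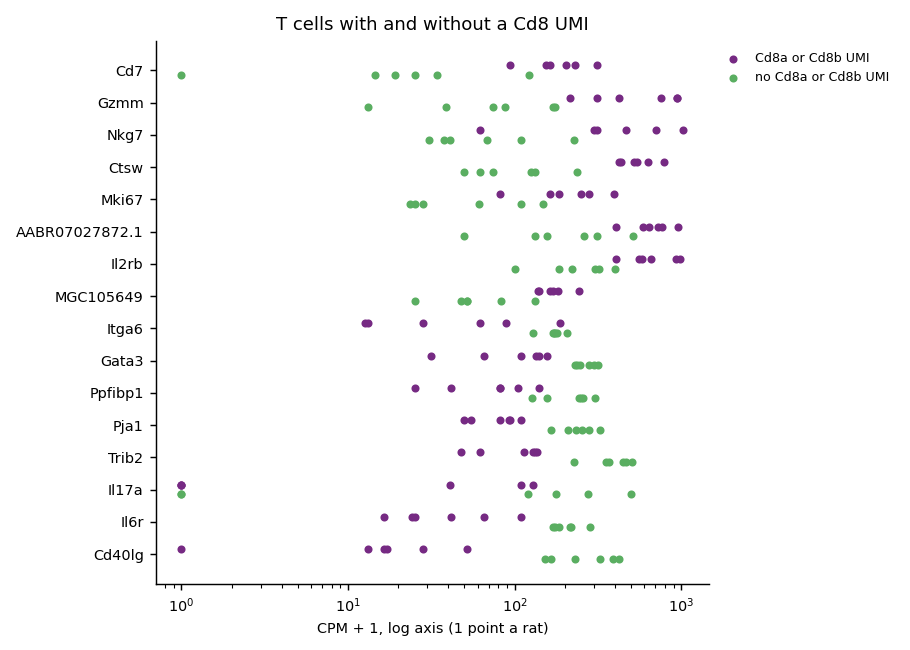
CPM + 1 on a log axis for T cells with a Cd8a or Cd8b UMI (purple) and T cells without (green), 1 point for each of 6 rats and gene, for the 8 genes with the largest difference in each direction past the threshold. Ctsw averages 555 CPM in Cd8 cells and 113 CPM in the others, and Cd40lg 20.2 CPM in Cd8 cells and 281 CPM in the others.

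The BLM comparison was repeated within both kinds of T cell. In Cd8 cells 3 of 1873 genes were higher in BLM rats (0.160%) and 0 lower, with 145 at an unadjusted p under 0.05 in either direction. Il2ra was at 220, 241 and 295 CPM in Cd8 cells of BLM rats and 60.8, 81.2 and 24.3 CPM in those of Control rats (2.26, SE 0.44, edgeR adjusted p = 0.0217). Dusp2 was at 903, 803 and 622 CPM in BLM rats and 294, 162 and 438 CPM in Control rats (1.30, SE 0.28), and Rgs1 at 1795, 1309 and 1554 CPM in BLM rats and 790, 649 and 729 CPM in Control rats (1.08, SE 0.21). No rat of either group overlapped with the other group in these 3 genes.

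In T cells without a Cd8 UMI, 5 of 2766 genes were higher in BLM rats (0.181%) and 0 lower, with 280 at an unadjusted p under 0.05. Olfm1 was at 135, 191 and 164 CPM in BLM rats and 26.6, 36.6 and 36.1 CPM in Control rats (2.42, SE 0.41, edgeR adjusted p = 0.0142). Ell2 (1.45), Dusp2 (1.12), S100a4, a calcium binding protein of memory and motile cells (1.48), and Chordc1, a partner of the chaperone HSP90 (1.13), were the others. S100a4 was at 1181, 693 and 1567 CPM in BLM rats and 439, 439 and 373 CPM in Control rats. Il2ra in these cells was at 321, 390 and 346 CPM in BLM rats and 200, 48.8 and 193 CPM in Control rats (1.26, adjusted p = 0.0672), where Control 2 was the low rat. The test of the difference between both kinds of cell did not pass for Il2ra (difference 1.11, SE 0.55, adjusted p = 0.9999).

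A difference of the BLM response between Cd8 cells and the others was found by edgeR for 1 of 2574 genes (0.0389%). Top2a, the topoisomerase of dividing cells, was at 255, 209 and 218 CPM in Cd8 cells of BLM rats and 50.7, 54.1 and 146 CPM in those of Control rats, and at 45, 34.9 and 0 CPM in the other T cells of BLM rats and 79.9, 48.8 and 193 CPM in those of Control rats (difference 3.23, SE 0.65, adjusted p = 0.0218). It rests on 83 UMIs in BLM and 51 in Control T cells. In the 180 Cd8b cells, 0 of 799 genes passed in edgeR and 0 in DESeq2, with 48 at an unadjusted p under 0.05 in edgeR, and 8 genes passed without Control 3, 2 without BLM 1 and 1 without BLM 2.

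Whether the response was particular to T cells was asked against NK and B cells of the same rats. Between T and B cells 0 of 4018 genes differed in their BLM response by edgeR and 0 by DESeq2, with 180 at an unadjusted p under 0.05, and 33 of the 35 T cell genes were among those tested. Il2ra, Olfm1, Rora and Icos were near the floor in B cells, at 3.24, 2.65, 1.33 and 9.15 CPM on average. The SE of their differences ran from 1.41 for Icos to 2.65 for Rora, so the test could not decide for these genes. Without BLM 2, 4 genes passed, and without BLM 1 or Control 3, 1 did. Dusp2 averaged 573 CPM in T cells of BLM rats and 260 CPM in those of Control rats, and 348 CPM in B cells of BLM rats and 191 CPM in those of Control rats (0.88 in B cells, adjusted p = 0.551). In NK cells Dusp2 averaged 1264 CPM in BLM rats and 351 CPM in Control rats (1.89, adjusted p = 0.0936). Nr4a3 averaged 558 CPM in B cells of BLM rats and 206 CPM in those of Control rats (1.41, adjusted p = 0.183). In B cells tested alone, 3 of 2720 genes passed (0.110%), all higher in BLM rats, and none of them was among the 35. Of the 10 T cell risers that were tested in B cells, 9 had positive fold changes there, with a median of 0.85, and of the 16 tested in NK cells 12 were positive, with a median of 0.34. In all other lung cells pooled, 16 of the 23 genes had positive fold changes, with a median of 0.59. Of the 23, 12 passed there by edgeR, 10 of them higher in BLM rats. Among those 10 were Prnp (1.98, adjusted p = 0.0022), Dusp2 (1.84, adjusted p = 0.0091), Il2ra (1.67, adjusted p = 0.0134) and Nr4a3 (1.21, adjusted p = 0.0037). This pool holds every cell outside the rule, the 384 cells with 1 Cd3 gene alone among them. Its mix also differed: the 10 stromal markers summed to 13893 CPM on average in BLM rats and 2532 CPM in Control rats. Which of its cells carried these changes was not tested. For B cells, NK cells and this pool, the share of all tested genes with a positive fold change is not given here. Nor is the share past the threshold in the pool, so the counts of risers there have no background. The lymphocytes of a rat share its library and free RNA.

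Between T and NK cells 6 of 4190 genes differed in their BLM response (0.143%), all with the larger fold change in T cells, and 266 had an unadjusted p under 0.05. Cd93 was the 1 of the 34 tested T cell genes among them: it averaged 82.4 CPM in T cells of BLM rats and 11.5 CPM in those of Control rats, and 75.5 CPM in NK cells of BLM rats and 279 CPM in those of Control rats (difference 4.49, SE 0.57, edgeR adjusted p = 6.9e-05). It rose in T cells and fell in NK cells (-1.83, adjusted p = 0.0374), where it was 1 of 2 genes past the threshold among 2326 (0.0860%), both lower. The other 5 were Sftpb, Sftpd and Defb4, genes of the airway and alveolar lining, the collagen gene Col1a1 and Art2b, an ADP-ribosyltransferase of rat lymphocytes. Without the cells with 3 or more UMIs of other types, Cd93 alone passed (4.76), while leaving out BLM 3 or Control 2 gave 3 genes, leaving out Control 3 gave 11, and DESeq2 on all rats gave 1.

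**Figure D5:**
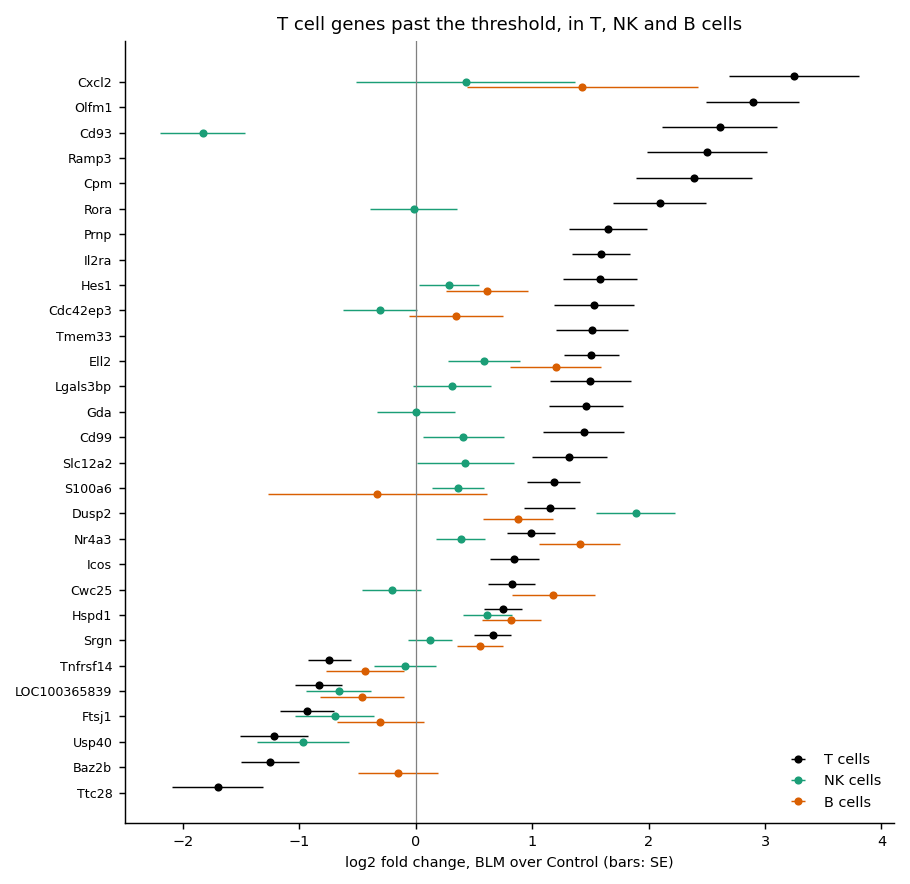
Log2 fold changes of BLM over Control with SE bars, in T cells (black), NK cells (green) and B cells (orange), for the 29 genes past the threshold in T cells that carry a RefSeq symbol or synonym, without points where a gene was too low to be fitted. Dusp2 is positive in all 3 cell types, and Cd93 is at 2.61 in T cells and -1.83 in NK cells.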

How the data were processed

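Lungs of 3 BLM and 3 Control rats were dissociated and captured on the BD Rhapsody system. The authors deposited 1 table of UMI counts, not normalized, with 16383 genes and 25547 cells. Genes missing from that table were not analysed here, among them Cd79a and most AP-1 and heat shock genes. For the aligner and the counter, the tools were not given in the sources used here. The build mm9, a mouse build, appears in the processing notes of the submitters without a stated role.

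The members and the gene lists were chosen with earlier results of these data known. T cells were gated as described, B cells by 2 or more B cell marker genes, not all of which are reported here. Comparisons of Cd4 cells could not be run, and cells with and without a Cd8a or Cd8b UMI were compared in their place. No doublet caller was run. UMIs were summed per rat and kind of cell, filtered with filterByExpr, scaled by TMM (factors 0.973 to 1.033) and tested with edgeR 4.0.16 (limma 3.58.1, R 4.3.3) by robust quasi-likelihood tests with Benjamini-Hochberg adjustment at 0.05. Interactions had the rat as a block. Shares were compared by two-sided exact permutation tests. Python 3.11.15 with scipy 1.17.1 and pandas 2.3.3 was used. DESeq2 1.42.0, other scalings, filters, gates and left-out rats were alternatives. The rats are separate animals, so p-values measure the spread between rats.

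Genes were named by a rule: past the threshold, no overlap between groups, at least 20 CPM on average and at least the level of other cells, the 10 largest changes a direction, then the 3 next without the last condition. On simulated data for the main comparison (3790 genes), the test called 39.8% of genes with a true log2 fold change of 1 and 98.2% with one of 2, with 5 of 3597 unchanged genes called.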

Additional observations from a re-analysis of the deposited data

Results flagged for a closer look

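The BLM response differed between T and NK cells, by the test of the difference itself in edgeR, for 6 genes. Cd93 had the difference of 4.49 given above on the log2 scale. Art2b averaged 110 CPM in T cells of BLM rats and 132 CPM in those of Control rats, and 25.0 CPM in NK cells of BLM rats and 299 CPM in those of Control rats (difference 3.36, SE 0.60, adjusted p = 0.0127). Art2b also fell in NK cells tested alone (-3.62, adjusted p = 0.0374), and it no longer passed without the cells with RNA of other types.

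Sftpb, a surfactant protein gene of alveolar type 2 cells, averaged 147 CPM in T cells of BLM rats and 29.1 CPM in those of Control rats, against 0 CPM in NK cells of BLM rats and 240 CPM in those of Control rats (difference 10.43). Sftpd, another surfactant gene, averaged 83 CPM in T cells of BLM rats and 4.69 CPM in those of Control rats, against 0 CPM in NK cells of BLM rats and 63.6 CPM in those of Control rats (difference 9.54). With 0 UMIs in NK cells of BLM rats these fitted differences depend on the prior count and are no bounds. Defb4, a defensin gene, had a difference of 6.56, from 85.4 CPM in T cells of BLM rats and 22.7 CPM in those of Control rats, and 1.98 CPM in NK cells of BLM rats and 95.2 CPM in those of Control rats. Col1a1 had a difference of 4.59, from 592 CPM in T cells of BLM rats and 6.16 CPM in those of Control rats, and 416 CPM in NK cells of BLM rats and 153 CPM in those of Control rats, with 641 of its 728 UMIs in BLM T cells from BLM 2. Of the UMIs in NK cells of Control rats, 49 of 51 for Sftpb, 12 of 14 for Sftpd and 16 of 22 for Defb4 were from Control 2, as were all 32 for Col1a1. These 4 genes mark other lung cells, and their source was not tested.

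The BLM response of Top2a differed between Cd8 cells and the other T cells by 3.23 on the log2 scale, with the values of each rat given above.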

How the results depend on the processing

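In the main comparison, 23 genes higher and 12 lower in BLM rats became 147 and 30 without a filter beyond 1 UMI, 52 and 22 without excluding genes in the gate, 48 and 22 with the replicate number as a block, and 19 and 20 without TMM. Cells without an Il17a UMI gave 15 higher, and cells with 2 or more Cd3 genes 6 lower. Without the cells holding RNA of other types 41 genes were called in either direction, 26 of them among the 35. Leaving out 1 rat gave 5 to 59 higher and 1 to 13 lower. DESeq2 called 29 genes, and gave no adjusted p for 3443 of 4036. Of the 35, 9 had an adjusted p in DESeq2, and all 9 passed, so only 9 of its 29 calls were among the 35. Olfm1, Il2ra, Ell2 and Rora got no adjusted p in DESeq2. Nothing in the labels says that the replicate numbers pair the rats. Rats of the same number had correlations of -0.03, 0.02 and 0.06, and rats of different numbers from -0.14 to 0.13, which does not settle it. All 35 genes stayed past the threshold with the block.

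For Cd8 cells against the others, 51 higher and 50 lower became 20 and 22 by DESeq2, 14 and 18 without the rat block, and 143 lower without a filter, with 23 to 63 higher and 24 to 60 lower on leaving out 1 rat. In Cd8b cells, 0 became 1 without a filter, 3 with cells of at least 500 UMIs, 2 without excluding genes, 3 without cells over 3 times the median UMIs, 1 with the replicate block, and 0 to 8 on leaving out 1 rat. For T against B cells, 0 became 13 without a filter, 2 without cells holding RNA of other types, and 0 to 4 on leaving out 1 rat. For T against NK cells, 6 became 20 without a filter, 1 by DESeq2, 2 without cells over 3 times the median UMIs, 1 without cells holding RNA of other types, and 3 to 11 on leaving out 1 rat. The Foxp3 share difference was -0.12 without Control 1, in a range of -0.12 to 1.61 percentage points, and for Col1a1, BLM effect in T cells against NK cells, the difference ran from -2.60 without Control 2 to 5.21 without Control 3. The cause of these changes was not tested. With 3 rats a group, shares cannot reach an exact p under 0.1, and the rarer transcripts rest on few UMIs.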
